A study of Homo sapiens with 9 samples.

Results

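The control cells were 22Rv1 cells with a hairpin RNA directed at GFP (shGFP), a sequence with no target of its own in human cells. They were chosen by their titles and by the names of their columns in the deposited count table, and gave 3 libraries of the 9 in the series. The other libraries carried 1 of 2 hairpins against CHD9, in 3 libraries each, and were not compared here. The 3 control libraries are labelled WT in genotype and as a knockdown of GFP, and the other 6 as CHD9 knockdown in genotype. Cells grew in RPMI medium and foetal bovine serum, and polyadenylated RNA was sequenced after a directional library preparation. How the hairpin was delivered, and whether the replicates were separate cultures, is not given in the sources used here, so the spread between replicates may be technical.

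22Rv1 is a human prostate carcinoma line that was established from a xenograft which had relapsed after castration of its host. It is a single line, grown without stroma, and its levels are those of one tumour. The gland that it comes from has 2 epithelial layers: luminal cells, which make the secreted proteases and depend on androgen, and basal cells beneath them. Nuclear receptors are factors that act on DNA when they bind a hormone, and pioneer factors such as FOXA1 open the chromatin for them. Prostate epithelium is known for making and exporting citrate, for holding zinc and for making polyamines. Late tumours can turn on steroid enzymes of their own or take on neuroendocrine genes.

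Levels are given as CPM, the usual scale of counts relative to the scaled library total, or as CPM per kb, which divides by the length of all annotated exons of the gene and is the scale on which genes are compared with each other. A ratio per kb depends on the annotated exon lengths of both genes, and its error covers only the spread between libraries. Where 3 values stand together they are for replicates 1, 2 and 3, in that order. A gene was counted as expressed at 1 CPM or more in each of the 3 libraries. The libraries held 18911142, 22544162 and 26103588 counts, so that 1 CPM was 18.9, 22.5 and 26.1 counts, and a gene with 0 counts may still have had up to 0.158, 0.133 and 0.115 CPM (3 counts, counting error only). Between 15896 and 16726 genes reached 10 counts, the mitochondrial genome took 3.66% to 3.83% of the counts and ribosomal protein genes 7.85% to 7.89%. Between pairs of libraries the chi-square of the counts over genes, per degree of freedom, was 1.82 to 2.32, above the 1 that counting error alone gives, and each library was kept as a replicate. The common coefficient of variation was 2.62%.

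Of 19854 protein-coding genes, 11888 (59.9%) were expressed by this rule, 2284 had a mean of 100 CPM or more and 89 of 1000 CPM or more. The 59.9% is the share to set beside each count of expressed protein-coding genes of a list below. The expressed genes had a median of 34.7 CPM, or 6.28 CPM per kb, with quartiles of 2.22 and 15.9 CPM per kb. Their coefficient of variation had a median of 4.09% and a 90th percentile of 12.2%.  Protein-coding genes held 97.5% of the counts, and the 987 most abundant genes as many as all others together (986 in replicate 3). Of 7523 long intergenic noncoding RNA genes 424 were expressed.

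A low value in this table does not show that a gene was silent. Genes that every dividing cell uses were listed at or near 0: POLR2A, the catalytic subunit of RNA polymerase II, had 2, 0 and 2 counts, and RPS9, RPS18 and RPL7A, parts of the ribosome, had 0 counts in all 3 libraries. Over 7 sets of such genes (ribosomes of the cytosol and of mitochondria, proteasome, chaperonin, RNA polymerase II, MCM helicase and complex I of the respiratory chain), 19 of 247 (7.69%) were below 1 CPM in at least 1 library, beside a median of 142 CPM over all 247. The low values went with 2 measured features. On chromosome 6 between 28 and 34 Mb, where the HLA genes lie, 25 of 200 protein-coding genes (12.5%) were expressed, against 491 of 840 (58.5%) on the rest of that chromosome. Of genes with 90% to 100% of their exonic bases under exons of another gene on the same strand, 2 of 360 (0.556%) were expressed, and of those with 60% to 90% under such exons 32 of 239 (13.4%), against 7922 of 13409 (59.1%) of genes with none. The share was 1178 of 1649 (71.4%) with up to 30% under such exons and 154 of 328 (47.0%) with 30% to 60%. With exons on the opposite strand the share was 56.2% without overlap, 75.8% with up to 30%, 64.3% at 30% to 60%, 59.4% (41 of 69) at 60% to 90% and 40.9% (9 of 22) at 90% to 100%. Only 3 of the 19 core genes below 1 CPM lay in that region or had at least 30% of their exons under another gene, so most such zeros had neither feature, and what else set them was not tested. Genes below 1 CPM are therefore described as listed at their count, not as absent. LDHA, a lactate dehydrogenase, had 0, 1 and 1 counts. The translation factor EIF5A had 0, 0 and 0 counts. For such genes the table cannot tell a silent gene from an uncounted one.

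**Figure D1:**
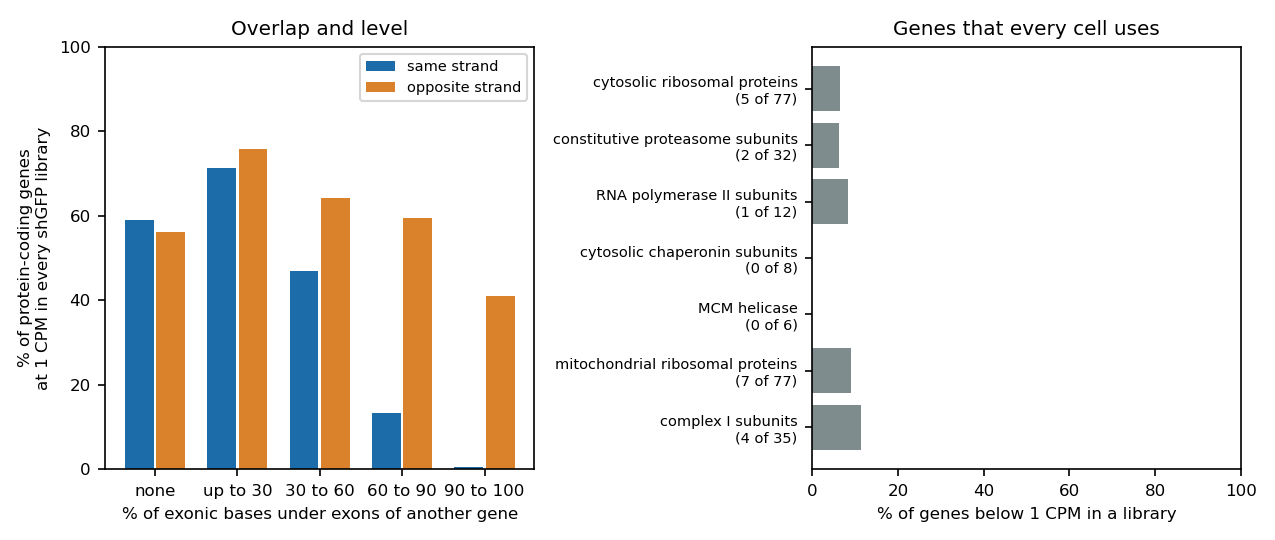
Left, the share of protein-coding genes at 1 CPM or more in every shGFP library, by the share of their exonic bases under exons of another gene, on the same strand (blue) and on the opposite strand (orange). The blue share is 59.1% without overlap, 71.4% with up to 30% and 0.556% at 90% to 100%. Right, the share of genes below 1 CPM in a library for 7 sets of genes that every cell uses, with the number of genes in brackets.

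Which genes led the transcriptome was asked first. Outside the mitochondrial genome and the ribosomal proteins, the highest mean counts belonged to the translation factor EEF1A1 (7630.4, 7538 and 7604 CPM), the fatty acid desaturase SCD (5782, 5779.5 and 5840.3 CPM) and the glycolytic enzyme GAPDH (4386, 4371 and 4322 CPM). The cyclin CCND1, which drives entry into the cell cycle, followed at 3714, 3750.3 and 3731 CPM. After the elongation factor EEF2 (2885, 2908 and 2842 CPM) and the actin ACTG1 (2849, 2877 and 2827 CPM) came the glucose transporter SLC2A1 at 2786, 2785 and 2727 CPM. Each of these genes had a coefficient of variation under 2% between libraries. Per kb, the actin-binding peptide TMSB10 came first at 4309 ± 30.2 CPM per kb (SD, n = 3, as for all errors of means here). SCD was at 1082 ± 6.40 CPM per kb, CCND1 at 773 ± 3.79, the heparin-binding growth factor MDK at 615 ± 13.8 and SLC2A1 at 586 ± 7.24. CHD9, the chromatin remodeller that the rest of the series knocks down (ENSG00000177200.17, chromosome 16, 53055033 to 53329150, plus strand, GRCh38), stood at 22.9, 20.7 and 23.3 CPM, or 1.35 CPM per kb.

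Most luminal prostate genes were expressed. Of 26 luminal markers, 22 of 26 were expressed, with a list median of 8.33 CPM per kb, against 59.9% and 1.31 CPM per kb for all protein-coding genes. Their summed level was 3264 to 3292 CPM. FOXA1, a pioneer factor of luminal cells (ENSG00000129514.8, chromosome 14, 37589984 to 37596059, minus strand), led them with 458, 469 and 454 CPM, a mean of 115.7 ± 1.96 CPM per kb. The luminal keratins KRT18 (325, 319 and 313 CPM) and KRT8 (310.4, 308 and 308 CPM) had almost the same counts, but KRT8 has more annotated exon, so that the ratio per kb was 2.21 ± 0.0324. These 2 keratins pair in filaments. FOLH1, which encodes the surface enzyme PSMA, stood at 393, 383 and 404 CPM and 103 ± 2.70 CPM per kb. The homeobox factor HOXB13, which keeps prostate identity, had 170.3, 167 and 165 CPM and the ETS factor SPDEF 92.1, 95.1 and 89.2 CPM, at 48.4 and 48.1 CPM per kb. E-cadherin (CDH1) had 408, 409 and 419 CPM and the adhesion molecule EPCAM 110.4, 115 and 111 CPM.

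The kallikrein proteases were unequal. KLK4 had 191, 192 and 186 CPM, KLK2 60.5, 64.6 and 66.6 CPM and KLK3, the gene of prostate-specific antigen (ENSG00000142515.15, chromosome 19, 50854915 to 50860764, plus strand), 33.01, 32.1 and 31.00 CPM. Per kb KLK4 was 14.2 ± 0.305 times KLK3, and KLK2 was 1.45 ± 0.115 times KLK3. In CPM, with no length, these ratios were 5.93 and 2.00. KLK2 and KLK3 are close copies, so their split depends on how reads that fit both were counted, which the sources used here do not give. KLK15, another member of the cluster, was lower still at 1.55 CPM per kb. The protease TMPRSS2 (12.7, 10.8 and 10.3 CPM) and prostatic acid phosphatase ACP3 (4.65, 3.95 and 4.06 CPM) were expressed at 1.84 and 1.01 CPM per kb. The 4 luminal markers below 1 CPM were TRPM8 and TGM4, with 0 counts in every library, MSMB with 1, 3 and 2 counts and NPY at 0.106, 0.311 and 0.115 CPM.

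**Figure D2:**
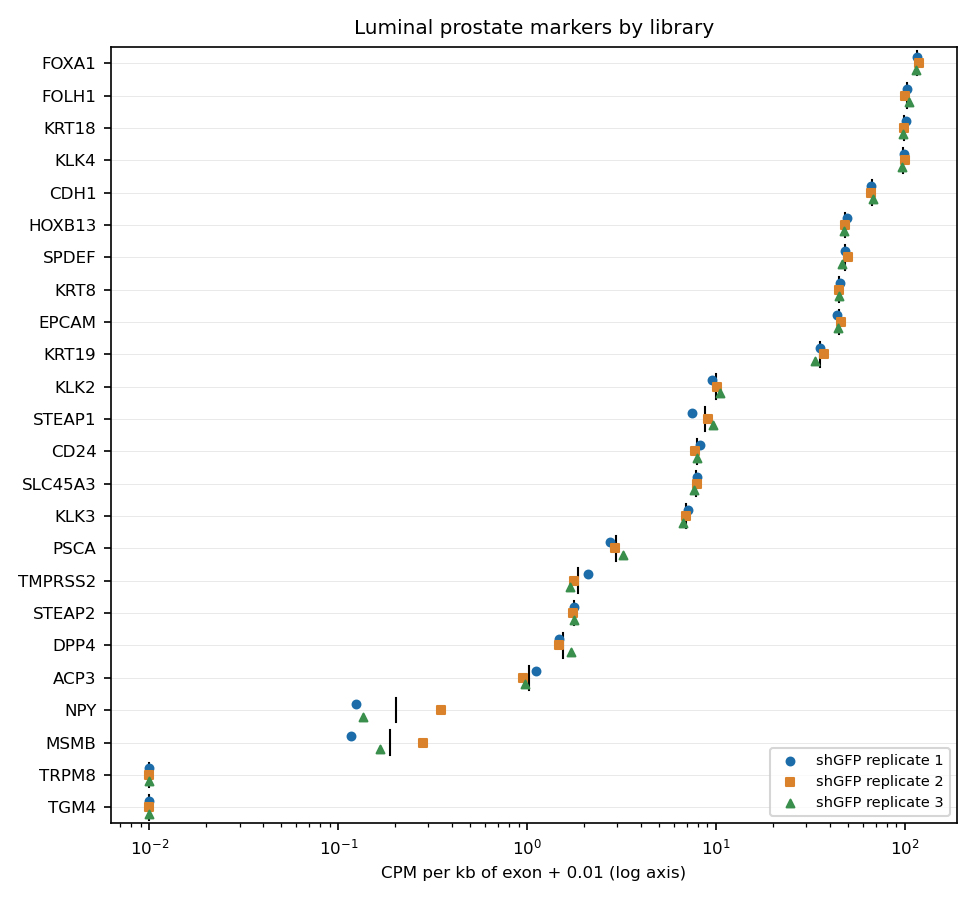
Level of 24 luminal prostate markers in each shGFP library, as CPM per kb of exon with 0.01 added on a log axis. Each point is 1 library and the black line the mean of 3. From FOXA1 (115.7 CPM per kb) to ACP3 (1.01) the libraries lie close together, and TRPM8 and TGM4 are at 0 in all 3.

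Promoters are set beside these levels to show which hold a TATA box, the element that places the start of transcription. The 70 bases before the start are given for KLK3 and KLK2, a pair of neighbours whose levels differ from KLK4, for SLC2A1, among the 10 genes with the most counts outside the mitochondrial genome and the ribosomal proteins, and for the luminal genes FOXA1 and KRT8. They are RefSeq sequences of GRCh38.p14, read 5′ to 3′ on the strand of the gene: KLK3 at chr19:50854845-50854914, KLK2 at chr19:50873369-50873438 (both plus strand), and SLC2A1 at chr1:42958869-42958938, FOXA1 at chr14:37595250-37595319 and KRT8 at chr12:52926470-52926539 (all minus strand). Capitals mark TATAAA, read on either strand (TTTATA on the other).
KLK3: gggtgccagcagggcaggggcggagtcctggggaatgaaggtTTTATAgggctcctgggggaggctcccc
KLK2: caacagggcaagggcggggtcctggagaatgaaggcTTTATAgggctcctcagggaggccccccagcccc
SLC2A1: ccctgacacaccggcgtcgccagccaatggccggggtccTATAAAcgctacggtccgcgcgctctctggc
FOXA1: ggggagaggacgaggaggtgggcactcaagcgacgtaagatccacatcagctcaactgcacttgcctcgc
KRT8: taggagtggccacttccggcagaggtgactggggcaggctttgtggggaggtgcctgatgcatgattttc

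The capitals begin 28, 34 and 31 bases before the start in KLK3, KLK2 and SLC2A1. FOXA1 and KRT8 do not hold these letters in the bases shown, nor does the stretch of the same length before the start of ALB. Over 21508 windows of 15283 protein-coding genes, TATAAA on either strand, lying between 40 and 20 bases before the start, was present in 3.55%. The share was 8.80% for genes with 0 counts, 5.04% for genes with counts but under 1 CPM, and 1.27% to 2.73% over 4 equal classes of expressed genes by CPM per kb, the top 1 percent left out of the highest class. In that top 1 percent it was 12.1% (14 windows with TATAAA, exact 95% interval 6.76% to 19.4%), and 7.38% when the top was taken by CPM. That interval treats every window as independent. Some genes of the class gave more than 1 window, and windows of 1 gene may share a box, so the interval may be too narrow. The ratio of observed to expected CpG in the 300-base window had a median of 0.286 for genes with 0 counts and was higher in each next class, up to 0.900 in the top 1 percent. KLK3 and KLK2 had ratios of 0.0719 and 0.109, KRT8 0.111, SLC2A1 0.803 and FOXA1 0.966. These are matches of letters, not sites that a factor was shown to hold.

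Genes of the other prostate cell types had lower list medians than the luminal markers, and a smaller share of them was expressed. Of the basal markers, 10 of 19 (52.6%) were expressed, near the 59.9% of all protein-coding genes. Their median was lower, 0.233 CPM per kb against 1.31 for all protein-coding genes, and their summed level was 106 to 114 CPM. P-cadherin (CDH3) was the highest at 47.5, 40.8 and 46.8 CPM and the hyaluronan receptor CD44 stood at 16, 16.2 and 16.9 CPM. The defining basal keratins KRT5 and KRT14 had 0 counts in every library, and TP63, the master factor of basal cells, had 2, 1 and 0 counts. Of the neuroendocrine markers, 9 of 22 were expressed, with a summed level of 969 to 979 CPM, most of it from 2 genes. The retrotransposon-derived gene PEG10 had 623, 621 and 625 CPM and the enolase ENO2 261, 256 and 259 CPM, at 93.2 and 60.4 CPM per kb. The third, the factor ONECUT2, had 55.3, 50.1 and 54.6 CPM, but only 3.29 CPM per kb because its transcript is long. DLL3, a Notch ligand, was at 9.19, 8.88 and 7.05 CPM and the vesicle protein SYP at 2.27, 1.91 and 2.26 CPM. The granule gene CHGA and the factors NEUROD1 and INSM1 had 0 counts in all libraries.

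Mesenchymal genes were mixed. Of 22, 11 of 22 were expressed, and 7 were at 2 CPM or more in every library. The summed level was 510.1 to 514 CPM. N-cadherin (CDH2) had 133, 126 and 137 CPM, fibronectin (FN1) 234, 239.7 and 229 CPM, the collagen COL6A1 91.6, 97.9 and 91.2 CPM and the factor TWIST1 34.4, 31.04 and 32.99 CPM. Vimentin, the main filament of mesenchymal cells, was at 4.70, 3.73 and 4.83 CPM, and per kb CDH1 was 78.9 ± 11.1 times VIM and 2.51 ± 0.0888 times CDH2. The fibroblast gene DCN had 0, 1 and 1 counts. PDGFRA had 0, 1 and 0 counts, and THY1 had 0, 0 and 1. Immune markers summed to 3.64 to 4.29 CPM. Of 15 only CD8A passed, at 2.85, 2.75 and 2.95 CPM, and PTPRC, which all leukocytes carry, had 0 counts in every library. Endothelial markers summed to 0.475 to 0.888 CPM, and none of 10 reached 1 CPM in every library. The highest was TIE1, at 0.264, 0.710 and 0.230 CPM, and CDH5, KDR and CLDN5 were at 0.

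Epithelial junction genes were expressed almost in full. Of 25 junction genes, 22 of 25 were expressed, with a median of 11.2 CPM per kb. Plakophilin PKP3 (244, 252 and 242 CPM), claudins CLDN3 (67.9, 75.04 and 68.8 CPM) and CLDN4 (205, 220.3 and 203 CPM), and the catenins CTNNB1 (618, 598 and 605 CPM) and CTNNA1 (434, 416 and 424 CPM) were the highest per kb after CDH1. The splicing factors of epithelia, ESRP1 and ESRP2, were at 37.8 and 22.7 CPM per kb. The tight junction genes OCLN (0.528, 0.355 and 0.460 CPM) and CLDN8 (0 counts) did not reach the level.

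**Figure D3:**
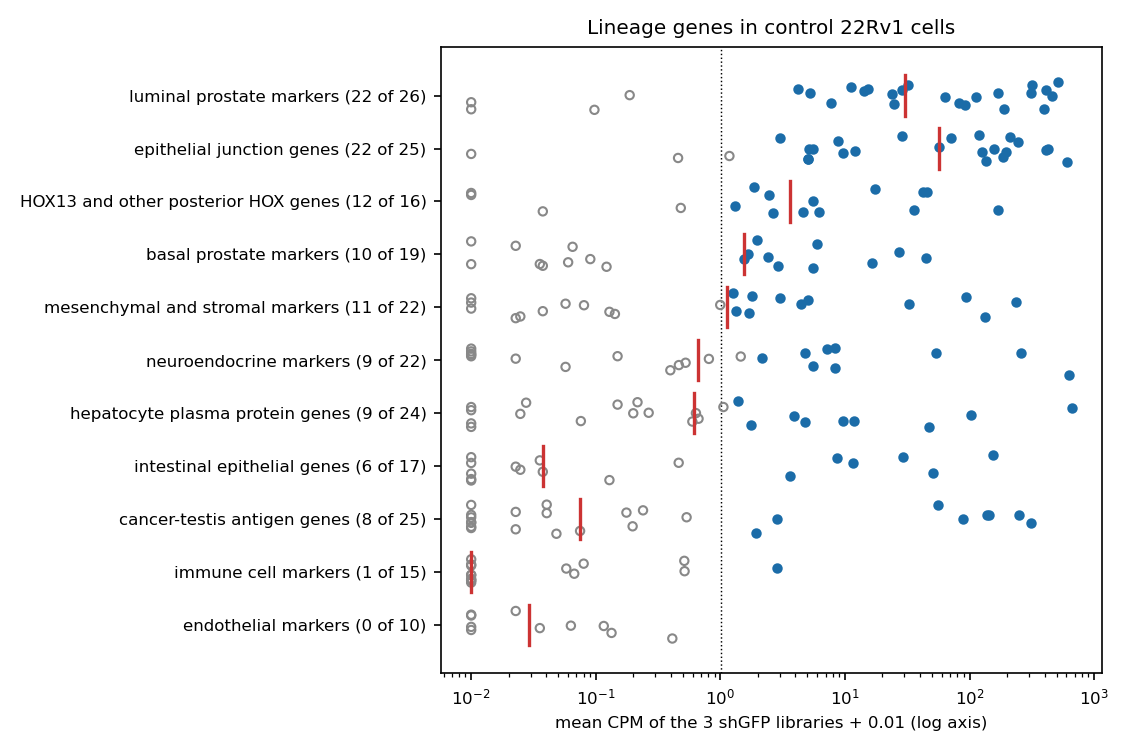
Mean level of each member of 11 gene lists over the 3 shGFP libraries, as CPM with 0.01 added on a log axis. Filled points are genes at 1 CPM or more in every library, whose number stands in brackets, open points the others, and the red line is the list median. Luminal and junction genes lie mostly right of the dotted line at 1 CPM, and all 10 endothelial genes are open.

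Genes of other organs were expressed as single genes more than as programmes. Albumin (ALB, ENSG00000163631.17, chromosome 4, 73397114 to 73421412, plus strand) had 676, 660.0 and 655 CPM, or 197 ± 3.24 CPM per kb. The plasma protein AMBP had 103, 106 and 102 CPM. Per kb ALB was 3.87 ± 0.0988 times AMBP. Yet of 24 genes of hepatocytes only 9 of 24 were expressed, and the fibrinogen genes FGA and FGG, haptoglobin (HP) and CYP3A4 had 0 counts in every library. APOA1 stood at 0.739, 0.622 and 0.613 CPM, SERPINA1 had 0, 1 and 0 counts and the liver receptor HNF4A was at 0.898, 0.3996 and 0.460 CPM. Of 17 intestinal genes 6 of 17 were expressed: the microvillus protein VIL1 (155, 152 and 153 CPM), the disulfide isomerase AGR2 (50.5, 51.5 and 49.9 CPM), the receptor HNF4G (29.2, 28.6 and 29.7 CPM), GATA6, CDH17 and REG4. CDX1, CDX2 and MUC2, which define gut epithelium, had 0 counts.

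Position along the body axis is written in the HOX genes, which code for homeobox factors. Of 16 posterior HOX genes, 12 of 16 were expressed. After HOXB13 the highest per kb were all of the C cluster: HOXC10 (19.03, 17.3 and 17.7 CPM per kb), HOXC13 (15.5, 14.3 and 14.3), HOXC12 (13.9, 12.98 and 13.9) and HOXC9 (9.85, 10.6 and 10.9). HOXB13 was 2.69 ± 0.102 times HOXC10. HOXA13 reached 1.08 and HOXD13 0.583 CPM per kb, while HOXD10 and HOXD11 had 0 counts. Cancer-testis antigens, normally made in germ cells, were split between a few genes and none. Of 25, 8 of 25 were expressed: CTAG2 at 244, 249.6 and 249.9 CPM (249.7 CPM per kb), MAGEA4 at 314, 319 and 309 CPM, MAGEA1 at 144, 144 and 145 CPM, and MAGEA3, MAGEA6, MAGEA12, SSX2 and MAGEA2 below them. CTAG1B, which lies near CTAG2 and is much like it, had 0.264, 0.222 and 0.0766 CPM. MAGEA genes are close copies, and their split is uncertain. The same limit applies to CTAG1B and CTAG2, so the low value of CTAG1B is given as counted only.

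Among ETS factors, which fusions activate in many prostate tumours, 19 of 27 were expressed. SPDEF led at 48.1 CPM per kb, followed by ETV4 (78, 75.3 and 71.1 CPM, 20.7 CPM per kb), the repressor ERF (20.5) and ELK1 (20.4). ETV5 and ETV1 stood at 8.91 and 3.46 CPM per kb. ERG, the usual partner of TMPRSS2 in fusions, had 3, 1 and 3 counts, and FLI1 had none. Of 31 genes that are often altered in prostate tumours, 29 of 31 were expressed, with a median of 8.53 CPM per kb. Besides CCND1, the cell cycle inhibitors CDKN1A (309, 318 and 307 CPM) and CDKN1B (255, 262 and 259 CPM) and the factor MYC (304, 311 and 301 CPM) had the highest levels per kb. RB1, which holds back the cell cycle, had 58.7, 59.1 and 57.9 CPM and the ubiquitin ligase adaptor SPOP 52.4, 54.5 and 56.3 CPM. MYCN stood at 0.370, 0.311 and 0.536 CPM.

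Hormone genes were described next, starting with the nuclear receptors. Of 48 nuclear receptors, 30 of 48 were expressed. The orphan receptors ESRRA (76.3, 74.2 and 74.8 CPM per kb) and NR2F6 (47.4, 50.3 and 46.3) had the highest levels per kb, and their ranges did not overlap. NR2F1 (23.9, 25.9 and 25.5) and the oxysterol receptor NR1H2 (23.6, 24.4 and 22.8) were lower, with ranges that overlapped. NR2F1 was 16.4 ± 0.467 times its relative NR2F2.

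Several steroid receptors were low. The glucocorticoid receptor NR3C1 had 25.2, 25.4 and 26.4 CPM and 2.80 CPM per kb. The mineralocorticoid receptor NR3C2 stood at 1.68 CPM per kb and the oestrogen receptor ESR1 at 6.39, 6.30 and 6.13 CPM. ESR2 had 2, 5 and 0 counts, and the progesterone receptor PGR was at 0.106, 0.3996 and 0.230 CPM. The retinoid receptors RARG (13.9 CPM per kb), RXRA (5.12) and RARA (2.53) and the vitamin D receptor VDR (3.89) were expressed. RXRB had 0 counts in every library and lies in the stretch of chromosome 6 where few genes had counts.

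All 26 partners and coregulators of steroid receptors on the list were expressed, with a median of 15.95 CPM per kb. The chaperones that hold steroid receptors ready for hormone were the highest: HSP90AB1 (2421, 2367 and 2433 CPM), HSP90AA1 (1843, 1805 and 1900.1 CPM), PTGES3, known as p23 (569, 539 and 575 CPM), and the immunophilin FKBP4 (564, 570.2 and 571 CPM). The factors GATA2 (168, 170.2 and 162 CPM), GATA3 (95.7, 98.5 and 92.5 CPM) and GRHL2 (133, 137 and 135 CPM) stood at 37.4, 27.8 and 22.3 CPM per kb. The coactivators NCOA1, NCOA2 and NCOA3 had 2.57, 7.26 and 6.07 CPM per kb, and the corepressor NCOR1 11.04. Of genes known to respond to androgen, 22 of 29 were expressed, led by PLPP1 (106 CPM per kb), UBE2C (106), KLK4 (98.1), ZBTB10 (49.02) and ELL2 (45.3), with C1orf116 next at 35.02. UBE2C and CENPN are also genes of the cell cycle. FKBP5, a chaperone partner that feeds back on steroid receptors, had 165, 164 and 167 CPM.

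Enzymes that make androgens were mixed. Of 21, 13 of 21 reached the level. CYP11A1, which cuts the cholesterol side chain, CYP17A1, which makes the androgen precursors, and the testis enzyme HSD17B3 had 0 counts in every library. STAR had 2, 0 and 0 counts and HSD3B1 0, 0 and 1. Of the 5-alpha reductases, which turn testosterone into dihydrotestosterone, SRD5A1 had 26.4, 28.2 and 25.1 CPM and SRD5A2, the form of the normal prostate, 0, 0 and 1 counts. SRD5A3, a relative that serves mainly in glycosylation, had 76.7, 77.2 and 78.2 CPM and was 5.10 ± 0.331 times SRD5A1 per kb. AKR1C3, which makes testosterone from androstenedione, had 7.87, 8.75 and 9.16 CPM and 1.90 CPM per kb. It was 1.66 ± 0.259 times AKR1C2, a near copy, so that the split between them is uncertain. HSD17B10 led the list at 121, 126 and 119.9 CPM per kb, but it also serves the mitochondrial breakdown of branched amino acids.

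Of 21 enzymes that remove androgens, 12 of 21 were expressed. UGDH, which makes the glucuronic acid donor, had 153, 144 and 155 CPM and the dehydrogenases HSD17B11 and HSD17B4 70.8, 69.8 and 70.8 CPM and 144, 146 and 146 CPM. The glucuronosyl transferases UGT2B11 (8.71, 9.72 and 9.73 CPM) and UGT2B15 (8.77, 7.86 and 7.89 CPM) were followed by UGT2B7 (2.43, 2.26 and 2.22) and UGT2B28 (1.64, 1.69 and 1.46), and UGT2B17 stood at 0.634, 0.222 and 0.460 CPM. These too are close copies. HSD17B2, which oxidises testosterone back, had 0 counts. In glucocorticoid and oestrogen metabolism 5 of 12 genes were expressed, among them CYP1A1 (32.1, 37.7 and 34.7 CPM), HSD11B2, which inactivates cortisol (18.8, 16.2 and 15.5 CPM), SULT1A1 and CYP1B1. Aromatase (CYP19A1) had 0, 2 and 4 counts.

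**Figure D4:**
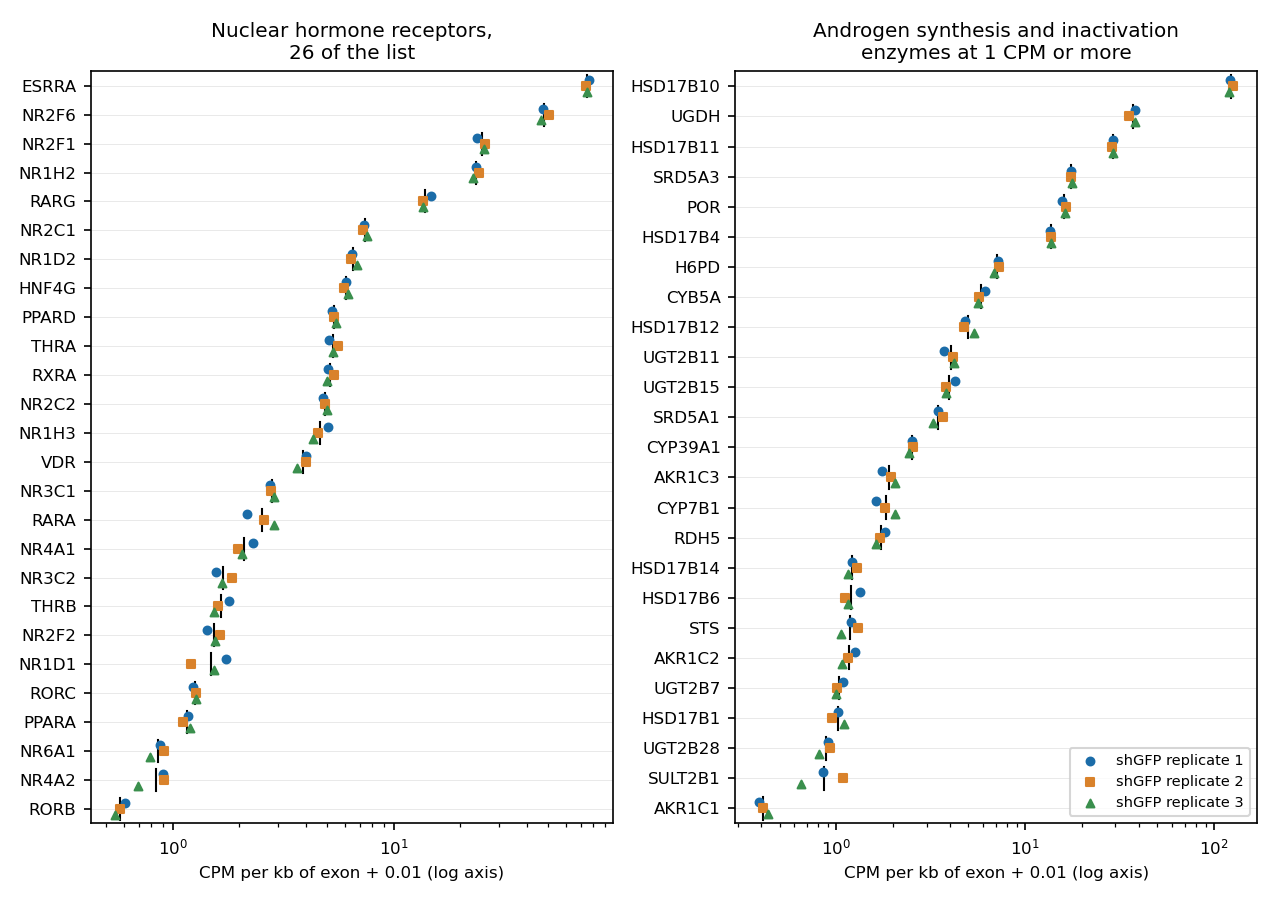
Level in each shGFP library, as CPM per kb of exon with 0.01 added on a log axis, of 26 nuclear receptors of the list, ordered by mean (left), and of the androgen enzymes at 1 CPM or more in every library (right). Each point is 1 library and the black line the mean. ESRRA (75.1 CPM per kb), NR2F6 (47.98) stand above the other receptors shown, and HSD17B10 (122) above the other enzymes.

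At the surface, 33 of 42 receptors of hormones and growth factors were expressed. The fibroblast growth factor receptor FGFR3 had 126, 132 and 118 CPM and was 11.1 ± 0.521 times FGFR1 per kb. In CPM, with no length, that ratio was 3.88. FGFR2 had 0, 1 and 0 counts. In the ERBB family the order per kb was ERBB3 (20.4, 19.5 and 19.8 CPM per kb), ERBB2 (9.15, 8.92 and 8.87), EGFR (3.58, 3.35 and 3.25) and ERBB4 (0.670, 0.621 and 0.839). None of these ranges overlapped, and ERBB3 was 2.21 ± 0.0243 times ERBB2. Ephrin receptors EPHB4 (21.7 CPM per kb) and EPHA2 (18.4) were near ERBB3. The insulin receptor INSR had 5.65, 5.00 and 5.39 CPM per kb against 0.261, 0.3599 and 0.366 for IGF1R. The prolactin receptor PRLR stood at 48.5, 48.7 and 50.2 CPM, the growth hormone receptor GHR at 26.8, 27.97 and 27.02 CPM and MET at 38.98, 34.1 and 37.6 CPM. AXL (0.264, 0.133 and 0.115 CPM) and KIT (0.370, 0.710 and 0.651 CPM) were below the level.

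Of 48 secreted hormones and growth factors, 21 of 48 were expressed, and the list was led by a single gene. MDK, midkine, had 1331, 1385 and 1334 CPM, and the next per kb, the neuropeptide galanin (GAL), 93.3, 92.7 and 89.8 CPM. MDK is a small gene, and per kb the levels were 615 ± 13.8 and 70.7 ± 1.43. The stress cytokine GDF15 followed at 40.9 CPM per kb, then BMP2 (9.87), TGFB1 (7.32) and VEGFA (5.13). IGF1 was at 4.54, 5.15 and 4.79 CPM, but most of its exonic bases lie under exons on the opposite strand. NRG1, the ligand of ERBB3, had 0 counts, IGF2 1, 0 and 0 counts and EGF 0.158, 0.488 and 0.345 CPM.

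Antigens that are used to target prostate cancer were expressed at 29 of 42. FOLH1 stood out among the prostate-restricted ones: per kb it was 11.9 ± 1.58 times STEAP1 and 34.9 ± 2.52 times PSCA. In CPM, with no length, these ratios were 28.1 and 75.8. STEAP1 had 12.1, 14.8 and 15.6 CPM, PSCA 4.81, 5.15 and 5.67 CPM and the protease hepsin (HPN) 47.5, 48.6 and 45.5 CPM. Besides FOLH1, the highest per kb were genes that most cells carry: BSG (198 CPM per kb), CD63 (151), CD151 (74.5) and CD81 (63.5). The immune checkpoint ligand CD276 had 104, 109.9 and 106 CPM and CD274 0.370, 0.266 and 0.230 CPM. CEACAM5 had no counts, and NECTIN4 had 10.7, 9.99 and 9.01 CPM. Integrins reached the level for 15 of 26 subunits, with ITGB5 (294, 289.7 and 293 CPM) above ITGB1 (197, 191 and 199 CPM), a ratio per kb of 1.39 ± 0.0196. The basal pair ITGA6 and ITGB4 stood at 1.74, 1.64 and 1.19 and 1.74, 2.00 and 2.15 CPM.

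Genes of antigen presentation were expressed at 5 of 20. B2M, the light chain of class I molecules, had 36.5, 38.98 and 41.4 CPM, HLA-C 14.2, 15.7 and 15.02 CPM and HLA-B 11.2, 8.84 and 9.04 CPM. Of the 15 below the level, 12 lie in the chromosome 6 stretch or under another gene, and without such genes 1 of 4 was expressed. The HLA values are therefore given as counted only. CIITA and NLRC5, the factors that drive class II and class I genes and lie elsewhere, were at 0.739, 0.710 and 0.498 and 1.00, 0.799 and 0.920 CPM.

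Metabolic genes were asked about next, starting with sugar. Of 20 transporters of glucose and lactate with their partners, 10 of 20 were expressed. SLC2A1 had 52762, 62734 and 71157 counts and 586 ± 7.24 CPM per kb, while SLC2A3, the usual second transporter of tumour cells, had 0 counts. The next glucose transporter per kb was SLC2A8 at 6.73 ± 0.238. The lactate exporter SLC16A3 stood at 27.8, 28.7 and 26.6 CPM and its chaperone BSG at 198 CPM per kb, and SLC16A1 was listed with 0, 0 and 1 counts. Of 30 glycolytic genes 22 of 30 were expressed, with GAPDH (1462 CPM per kb), TPI1 (633), ENO1 (176), PGAM1 (123) and PKM (101) among the highest. PGAM2, the muscle form, was listed at 188, 186 and 179 CPM, but all of its exonic bases lie under exons on the other strand, and whether its reads belong to that gene was not tested. LDHB (1.58, 2.13 and 2.30 CPM) and ALDOA (1.90, 2.35 and 1.92 CPM) were low, with 33.4% and 42.3% of their exons under another gene on the same strand.

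Related genes, most of them enzymes, were ordered per kb within 15 sets, which also held glucose transporters, cadherins and ERBB receptors. In 24 of 25 neighbouring pairs the ranges of the 3 libraries did not overlap, and the exception was HSD3B2 and HSD3B1, both near 0. Some of these orders rest on a low or zero member, such as LDHA, ALDOA or SLC2A3. For such members the table cannot tell a low level from uncounted reads, so those orders hold for the counts only. HK1 was 2.86 ± 0.0303 times HK2, ENO1 2.91 ± 0.0345 times ENO2 and ENO2 9.52 ± 1.35 times ENO3. The phosphofructokinase of muscle, PFKM (35.4, 34.6 and 34.6 CPM per kb), was 1.32 ± 0.0480 times the liver form PFKL and 8.35 ± 0.915 times the platelet form PFKP. CPT1A, which admits fatty acids to mitochondria, was 7.60 ± 0.183 times CPT1C. ACACB was 3.36 ± 0.596 times ACACA, with the latter at 4.28, 5.68 and 4.79 CPM. No order of means changed with the longest transcript as the length or with no length, and 23 pairs lay apart with no length.

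**Figure D5:**
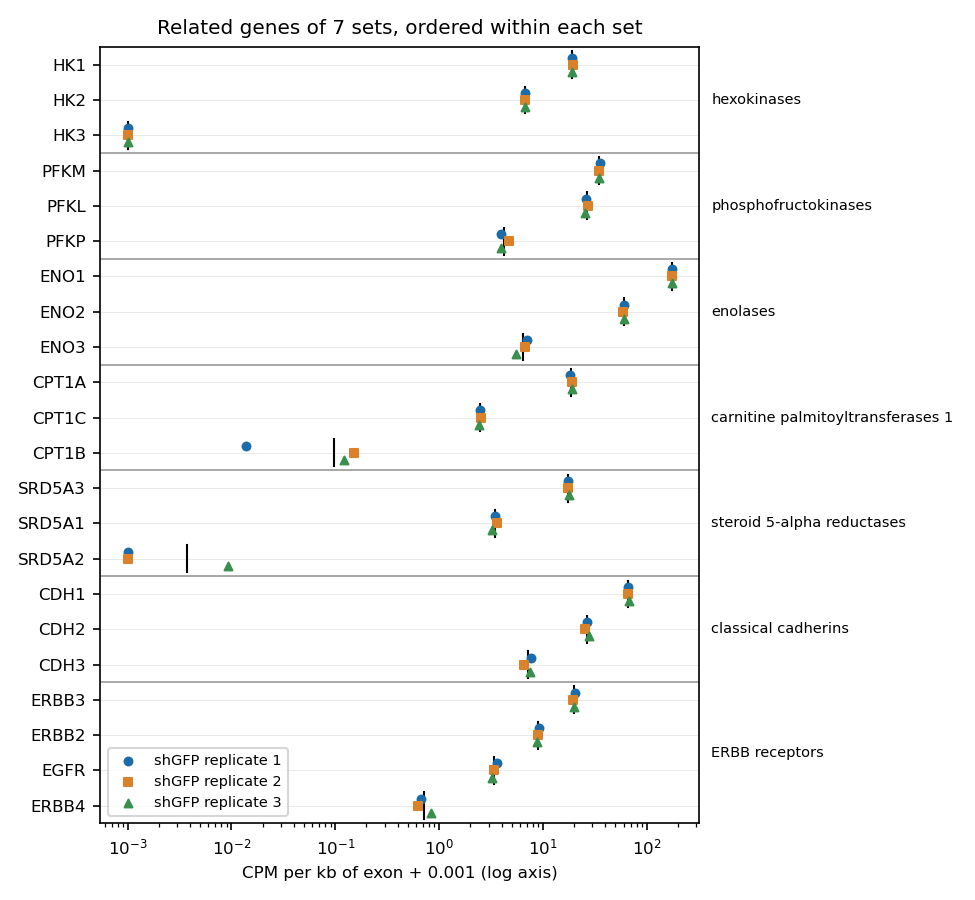
Level in each shGFP library, as CPM per kb of exon with 0.001 added on a log axis, of the genes of 7 sets, ordered within each set. Each point is 1 library and the black line the mean. Within each set the ranges of neighbouring genes lie apart, from ENO1 (176 CPM per kb) down to HK3, which has 0 counts in all 3 libraries.

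The citrate cycle and the export of citrate were covered almost in full. Of 33 genes 30 of 33 were expressed, with a median of 27.3 CPM per kb. The malate dehydrogenase MDH2 (599, 604 and 603 CPM), the mitochondrial citrate carrier SLC25A1 (321, 323 and 314 CPM), fumarase (FH, 242, 245 and 242 CPM) and citrate synthase (CS, 474, 477 and 496 CPM) were among the highest. ACLY, which splits citrate for lipid synthesis, had 461, 449 and 456 CPM. ANKH, a transporter that lets citrate out of the cell, had 47.9, 47.1 and 48.3 CPM, and SLC13A5, an importer, 0 counts. PCK1 and PCK2 had 0 counts as well, and SDHA, a subunit of succinate dehydrogenase, had 0.750, 0.763 and 0.681 CPM per kb beside 56.8, 55.4 and 57.3 for SDHB.

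Zinc genes were expressed at 17 of 30. The importers SLC39A6 (178, 179.9 and 185 CPM), SLC39A14 (173, 164 and 164 CPM) and SLC39A10 (129, 122 and 137 CPM) led. SLC39A1, the importer best known in the prostate, was listed at 3.49, 2.97 and 2.41 CPM with 60.8% of its exons under another gene on the same strand. Metallothioneins, which bind zinc, were low: MT2A had 8.03, 8.57 and 7.59 CPM, MT1X 2, 0 and 2 counts, and MT1E, MT1M and MT1H 0. Polyamine genes were expressed at 19 of 23. ODC1, which makes putrescine, had 603, 613 and 613 CPM, the spermidine synthase SRM 152, 157 and 139.6 CPM, AMD1 345, 341 and 351 CPM and the spermine synthase SMS 102, 96.97 and 103 CPM. Per kb ODC1 was 24.4 ± 1.01 times SAT1, which starts the breakdown of polyamines, and the antizyme OAZ1, which curbs ODC1, had 149 CPM per kb against 205 for ODC1.

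Lipid synthesis held SCD, the metabolic gene with the most counts. Of 26 genes of fatty acid synthesis 23 of 26 were expressed, with SCD at 109489, 130170 and 152409 counts. FASN, the fatty acid synthase, had 1409, 1462 and 1358 CPM, and per kb SCD was 7.20 ± 0.305 times FASN. The regulators SREBF2 and SREBF1 had 476, 489 and 465 and 109, 115.6 and 114 CPM, and the elongases ELOVL1, ELOVL5 and ELOVL6 55.3, 36.7 and 19.1 CPM per kb. The list's median was only 3.53 CPM per kb, below the 15.00 of the cholesterol genes. Of those, 25 of 26 were expressed, among them PMVK at 107 CPM per kb, FDPS at 76.2 and HMGCS1 at 46.6. The HDL receptor SCARB1 had 224, 228 and 219.8 CPM. The exporters ABCA1 (1.80, 1.42 and 1.76 CPM) and ABCG1 (1.90, 1.11 and 1.42 CPM) were just above the level. In fatty acid oxidation 25 of 29 were expressed, led by ACADVL (466, 462 and 454 CPM), ECI1 (193, 197 and 190.3 CPM) and HADHA (220.1, 214 and 219 CPM). The lipid carrier FABP5 had 77.3, 78.4 and 79.6 CPM, and FABP4 0 counts. AMACR, a marker of prostate cancer, was listed at 0.792, 0.844 and 0.383 CPM with 64.8% of its exons under another gene.

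Amino acid transporters were led by a few genes. Of 23 transporters 16 of 23 were expressed. SLC38A2 (1615, 1591 and 1695 CPM) and SLC7A5 (1395, 1427 and 1359 CPM), with its partner SLC3A2 (443, 450.4 and 437 CPM), had 247, 294 and 85.6 CPM per kb. They import glutamine and leucine. SLC38A1, which also imports glutamine, had 434, 431 and 431 CPM. The glutamine importer SLC1A5 stood at 122, 126 and 117 CPM, and the cystine importer SLC7A11 at 24.1, 24.95 and 26.2 CPM. Of 30 genes of glutamine, serine and folate metabolism 27 of 30 were expressed, with GLUD1 (392, 393 and 399 CPM), SHMT2 (372, 380.0 and 366 CPM), PSAT1 (165, 155 and 162 CPM) and TYMS (174, 172 and 173 CPM) the highest per kb. PHGDH, the first step of serine synthesis, was lower per kb than PSAT1, at 6.04 against 73.3. Of 33 redox genes 29 of 33 were expressed, led by GPX4 (700.1, 714 and 696 CPM), PRDX2 (681, 691 and 675 CPM) and GPX1 (402, 413 and 398 CPM). GSTP1, a detoxifying enzyme that most prostate tumours silence, was at 0.211, 0.222 and 0.230 CPM (4, 5 and 6 counts), and GSTM1 had 0 counts.

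How far the control libraries differed among themselves was asked last. Counts of 869 of 16241 genes (5.35%) were spread over the 3 libraries more than counting error allows (chi-square of homogeneity, Benjamini-Hochberg adjusted p under 0.05). This test compares the reads of these libraries and no conditions. Fewer were found between pairs of libraries: 631 without replicate 1, 285 without replicate 2 and 198 without replicate 3, each from 2 libraries in place of 3. Of the genes on any list, 46 of 642 tested (7.17%) were called, near the share of all genes. They were mostly genes with many counts and small differences: FASN had a coefficient of variation of 3.69%, SLC38A2 3.33% and HSP90AA1 2.60%. FOXA1, HOXB13, KLK2, KLK3 and KLK4 were not called, which does not show that their levels were equal. Over all lists, 587 of 894 genes (65.7%) were expressed, beside 59.9% of protein-coding genes, and of the 307 others 24 lie in the chromosome 6 stretch or have at least 30% of their exons under another gene on the same strand.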

How the data were processed

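The authors deposited 1 table of raw counts for the 9 libraries; its values are whole and were not normalised. Per the submitters' processing notes, Trim Galore, STAR and DESeq2 were used and the build was hg38. Their versions, the counting tool with its use of strand, and the gene annotation behind the table are not given in the sources consulted.

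The 3 shGFP columns were scaled by TMM in edgeR 4.0.16 (R 4.3.3). Of 67071 identifiers, 45 duplicates of pseudoautosomal genes were left out, 58496 were placed in GENCODE 29 on GRCh38, which gave the exon lengths, and 8530 were not placed; these held 0.152% to 0.155% of the counts. A gene was expressed at 1 CPM or more in every library. Homogeneity of counts was tested by chi-square with 2 degrees of freedom over genes with at least 30 counts, adjusted by Benjamini-Hochberg, in scipy 1.17.1, and the test was tried on simulated data. A single library at 0 counts was given a limit of 3 counts. Nothing was compared with the CHD9 hairpins, and no list was tested.

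Named genes are CHD9, the 10 protein-coding genes with the highest mean CPM and the 20 with the highest CPM per kb outside the mitochondrial genome and the ribosomal proteins, the 5 highest members of each list and the defining markers, all members of each set of related genes, and the 10 genes of at least 5 CPM with the highest coefficient of variation. Other members appear where a list is described. Some genes are not reported here, although the counts and medians of lists include them. The members and the 37 lists were chosen with earlier results of these data known. The division by overlap and by the chromosome 6 stretch was chosen after seeing the data. The alternatives tried were other floors, plain totals, size factors of DESeq2 1.42.0, TMM factors from all 9 libraries, other lengths, other minimum counts and leaving out each library.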

Additional observations from a re-analysis of the deposited data

How the results depend on the processing

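The number of expressed protein-coding genes, 11888, was 12442 at a floor of 0.5 CPM, 11275 at 2 CPM and 12109 with the mean of the libraries at 1 CPM, and 11949 to 11963 when a library was left out. The 587 expressed genes on the lists became 552 at 2 CPM and 618 at 0.5 CPM. Of single lists, the mesenchymal one went from 11 to 7 and antigen presentation from 5 to 3 at 2 CPM, and the latter to 1 without genes in the chromosome 6 stretch or under another gene on the same strand. The median level of the named genes, 93.1 CPM, lay between 92.3 and 94.2 CPM when a library was left out. TMM factors from all 9 libraries moved 12 of 238 levels by more than 1 SD, SCD among them. Genes whose counts varied between libraries numbered 869, 631 without a minimum count, and 198 to 631 when a library was left out: 285 without replicate 2 and 198 without replicate 3. That test then has fewer libraries. With no length, 23 of 25 neighbouring pairs lay apart in place of 24. The share of TATAAA in the top 1 percent of genes was 12.1% by CPM per kb and 7.38% by CPM.

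Counts per gene cannot separate splice forms or close copies, and levels below 1 CPM rest on fewer than 18.9 to 26.1 counts a library. No paired analysis was possible because the results come from a single group and from no comparison between groups.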

Other observations

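Whole gene families, which the lists above touch only in part, were also counted, beside the 59.9% of all protein-coding genes that were expressed. Of 55 keratin genes 4 were expressed, KRT18 (99.1 CPM per kb), KRT8 (44.9), KRT19 (35.3) and KRT10 (7.91), all but the last of them keratins of simple epithelia. KRT7 was next at 1.16, 0.888 and 1.03 CPM. Of 24 claudins, which seal tight junctions, 5 were expressed, with CLDN3 (55.4 CPM per kb) and CLDN4 (44.5) above CLDN15, CLDN12 and CLDN7. Of 14 Eph receptors, which read ephrins on neighbouring cells, 10 were expressed. EPHB3 had 696, 714 and 686 CPM and 154 ± 3.09 CPM per kb, above every receptor of the surface receptor list, where the highest was FGFR3 at 25.9. EPHA3 (247, 259 and 266 CPM) and EPHA7 (154, 155 and 156 CPM) followed at 38.5 and 20.8 CPM per kb, and EPHA7 lay near EPHB4 (21.7). Of 18 aldehyde dehydrogenases 14 were expressed, led by ALDH3A2, which clears fatty aldehydes (982, 971 and 982 CPM), and ALDH1A1, which makes retinoic acid (208, 197 and 204 CPM).

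Families of channels, carriers and enzymes varied in the share of members that were expressed, beside 59.9% of all protein-coding genes. Solute carriers (56.7%), ABC transporters (60%) and tetraspanins (63.6%) lay near that share. Of 96 potassium channel genes 32 were expressed, the highest per kb being KCNJ8 (13.5 ± 0.491 CPM per kb) and KCNH2 (6.16 ± 0.384). Of 24 transient receptor potential channels 10 were expressed, with TRPM4 (9.08 CPM per kb), TRPM2 (7.24) and MCOLN1 (7.04) the highest, while the prostate channel TRPM8 had 0 counts. Of 367 solute carriers 208 were expressed and of 45 ABC transporters 27, led per kb by ABCE1, which recycles ribosomes, and then by ABCA2 (268, 265 and 252 CPM). ABCC2, which exports glucuronides, had 104, 106 and 108 CPM. Of 55 cytochromes P450 15 were expressed, and CYP1A1 (10.1 CPM per kb) was the highest as counted. CYP51A1, at 6.31 CPM per kb, has 79.4% of its exonic bases under another gene on the same strand. Its place below CYP1A1 is therefore uncertain. Of 20 UDP-glucuronosyltransferases 5 were expressed, and 11 had 0 counts in every library. UGT1A1 and UGT1A4 have 49.9% and 63.9% of their exonic bases under another gene on the same strand. For such members the table cannot tell a silent gene from an uncounted one, so this share may be too low. Of 22 tetraspanins 14 were expressed, with TSPAN8 at 169, 167 and 171 CPM and 67.04 CPM per kb. Of 12 aquaporins 4 were expressed, AQP3 the highest at 48.8, 51.1 and 46.9 CPM.

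Of 20 long noncoding RNA genes studied in prostate cancer 10 of 20 were expressed. The share of protein-coding genes does not apply to them. By the same rule 424 of 7523 long intergenic noncoding RNA genes were expressed. The 20 were picked as studied genes, so these shares are not of like sets. The snoRNA host GAS5 had 407, 399 and 398 CPM, the nuclear RNA MALAT1 101, 109 and 109 CPM, NEAT1 56.2, 57.1 and 60.6 CPM and PCAT14 38.98, 39.2 and 40.8 CPM. PCA3, the urine marker of prostate cancer, had 0, 0 and 2 counts, PCGEM1 1, 0 and 0 and SCHLAP1 0.370, 0.666 and 0.383 CPM.

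The genes of at least 5 CPM that varied most between the control libraries were low in counts. ORAI1, a calcium channel subunit, had 4.81, 9.90 and 8.09 CPM, SLC22A18 4.33, 8.04 and 5.17 CPM and ZNF354C 4.86, 4.26 and 7.24 CPM. TAF4, a subunit of TFIID, had the most counts of the 10, at 19.3, 14.1 and 12.7 CPM.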
